A study of Homo sapiens with 14 samples.

Results

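The comparison was between tamoxifen-exposed LY2 cells that had received an siRNA against the nuclear receptor coactivator SRC-1, encoded by NCOA1, and tamoxifen-exposed LY2 cells that had received a scrambled siRNA. It used 6 of the 14 arrays of the series, chosen by their titles: SRC1-siRNA replicates 1 and 3, and control-siRNA replicates 1 to 4. LY2 is an established breast cancer line derived from MCF-7 that grows in the presence of anti-estrogens, and the labels describe it as tamoxifen resistant. Titles, sources and characteristics name LY2 for all 14 arrays, whereas the description field names another line, in a running number, for all but 1 of them; LY2 was taken as the line. All arrays, those of the other 8 included, came from cells kept in 10 nM 4-hydroxytamoxifen, the active metabolite of tamoxifen, in phenol-red-free medium with charcoal-stripped serum, and then held for 72 hours without it. The siRNAs were used at 40 nM, and 24 hours after transfection the cells compared here received 100 nM 4-hydroxytamoxifen for 2 hours. In the other 8 arrays, 4 of SRC1 siRNA and 4 of control siRNA, the cells received 0.01% ethanol for the same 2 hours, and the study calls them untreated. A single siRNA product per target was named, so that effects of the siRNA itself and of the loss of SRC-1 cannot be told apart. Labels call the replicates biological without naming separate cultures, so that p-values measure the spread between these arrays.

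SRC-1 is a p160 coactivator. It binds ligand-bound estrogen receptor and other nuclear receptors and recruits histone acetyltransferases to their target genes. In the antiviral pathway, to which several gene lists below belong, sensors of double-stranded RNA lead to transcription of interferons and NF-kappa-B targets. Secreted interferons then act through JAK kinases and STAT factors on genes with an interferon-stimulated response element, while IRF1, CIITA and NLRC5 act on the genes of antigen presentation.

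RNA was measured as log2 signal of 54613 probe sets after 62 array control probe sets had been left out, and all differences below are log2 differences of SRC1 siRNA minus control siRNA with their standard error. Array medians lay between 3.44 and 3.51, and 3.46 is the median of all signals. Differences between signals under it may be compressed, which was not tested. ESR1, the estrogen receptor gene, read 12.56 and 12.62 on the SRC1-siRNA arrays and 12.53 to 12.69 on the control arrays, and the keratin gene KRT8 read 11.62 and 11.87 against 11.31 to 11.61. PTPRC, the gene of the pan-leukocyte antigen CD45, lay between 2.11 and 2.42 on the 6 arrays, and CD3E, a T cell receptor subunit gene, between 1.31 and 1.58, both below the median signal. Arrays of different replicate number differed less than independent arrays would: over probe sets the median F of the number was 0.0428, where independent arrays give 0.871. Fits without the replicate number as a term may therefore give p-values that are too small, and calls in a fit with that term are given for the lists as well. Whether the values were adjusted for the replicate before deposit was not given in the sources used here. The array control AFFX-BioB-5 read 9.56 on SRC1-siRNA tamoxifen replicate 1, the highest of the 14 arrays, and 8.85 on replicate 3, the lowest. AFFX-BioC-5 read 11.23 and 10.48 on these arrays, again the extremes. The ACTB control AFFX-HSAC07/X00351_3 read 13.86 and 13.84, and AFFX-HSAC07/X00351_M 12.20 and 12.61, within the range of the other arrays. AFFX-HSAC07/X00351_5, also of ACTB, read 10.60 and 11.17, the latter the highest of the 14 arrays. Of the GAPDH controls, AFFX-HUMGAPDH/M33197_3 read 13.37 and 13.41, within the range. AFFX-HUMGAPDH/M33197_M read 12.48 and 12.82, the latter the highest, and AFFX-HUMGAPDH/M33197_5 read 12.40 and 12.70, the former the lowest. The bearing of these controls on the differences below was not tested.

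SRC-1 itself was lower on both knockdown arrays. The mean over the 4 probe sets of NCOA1 was 7.91 in SRC1-siRNA replicate 1 and 7.56 in replicate 3. On the control arrays it was 8.86, 8.98, 9.27 and 9.13. The groups did not overlap, and the difference of -1.32 corresponds to a signal 60.0% lower. In bulk RNA fewer transfected cells and less RNA per cell cannot be told apart. An exact two-sided permutation test over the 6 arrays gave p = 0.133, the smallest that 15 regroupings of 2 against 4 arrays reach. The difference was -0.94 within the pair of replicate 1 and -1.70 within the pair of replicate 3, so that the pair with the smaller loss of NCOA1 was replicate 1. In untreated cells the difference was -1.30. Each of the 4 probe sets passed an adjusted p of 0.05 in limma's test, with and without the replicate term. Among 15 measured genes of p160 coactivators and their partners, 0 rose and 2 fell (13.3%), where 8.71% of all genes fell. The 2 were NCOA1 and TRIM24, the gene of a nuclear receptor cofactor, which changed by -0.55 ± 0.10 (limma adjusted p = 0.00479). NCOA1 alone of these passed with the replicate term. NCOA2, which encodes the related coactivator SRC-2, differed by -0.03 ± 0.11 (adjusted p = 0.875).

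Across the transcriptome the larger changes were rises. Of 54613 probe sets, 7350 passed an adjusted p of 0.05 (13.5%), of which 3147 were higher (5.76%) and 4203 lower (7.7%). At a change of at least 2-fold, 468 probe sets were higher (0.857%) and 102 lower (0.187%), and at 8-fold or more 58 were higher (0.106%) and 0 lower. With the replicate term 1224 passed (2.24%), 604 higher (1.11%) and 620 lower (1.14%), among them 283 (0.518%) and 75 (0.137%) with a change of at least 2-fold. Of these, 604 higher and 618 lower probe sets (1.13%) had passed without the term too. The count of 7350 was 1390 without SRC1-siRNA replicate 1 and 4190 without replicate 3, while leaving out a control array gave 5073 to 6619. The share of higher calls among those that passed was 42.8%, and it was 33.1% after median centring of the arrays. Arrays of replicates 1 and 3 alone with the replicate term gave 167 higher and 97 lower calls, so that the balance of the calls turned. By gene, 314 symbols had a probe set at least 2-fold higher and 74 a probe set at least 2-fold lower.

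The 15 genes with the largest rises were VANGL2, CCL5, SCN3A, HLA-DRA, CXCL11, HLA-DPA1, CD74, CFB, RGS2, CEACAM1, RIPOR2, PLAAT4, ATP6V1C2, OASL and GZMA, with differences from 3.83 to 6.02. They passed with the replicate term as well, 15 of 15, and 14 of 15 passed without SRC1-siRNA replicate 1, where OASL did not. VANGL2, which encodes a membrane protein of planar cell polarity, read 9.68 and 9.04 on the SRC1-siRNA arrays. The control arrays read 2.72, 3.53, 3.33 and 3.79, near or below the median signal of all probe sets. The gap between the groups was wider than the whole spread within either, and the difference was 6.02 ± 0.59 (limma adjusted p = 0.000326, and 0.0121 with the replicate term). CCL5, the gene of a chemokine that attracts T cells and monocytes, read 11.12 and 10.35 against 4.10, 4.79, 5.63 and 4.96, a difference of 5.87 ± 0.61 (adjusted p = 0.000457). SCN3A, the gene of a neuronal sodium channel subunit, read 7.68 and 6.93 against 1.14, 2.31, 1.99 and 2.75. Its control signals were all below the median signal and its knockdown signals far above it, a difference of 5.26 ± 0.72 (adjusted p = 0.0012). In 14 of these 15 genes the lowest control array was replicate 1, and in 15 of 15 SRC1-siRNA replicate 1 read higher than replicate 3. The brightest probe set was the one used for 8 of the 15, and the brightest probe sets of all 15 rose. For the others the brightest one rose by less: CCL5 4.86, CXCL11 4.44, HLA-DPA1 3.94, ATP6V1C2 3.40, CEACAM1 3.11, OASL 2.35 and RIPOR2 1.53.

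**Figure D1:**
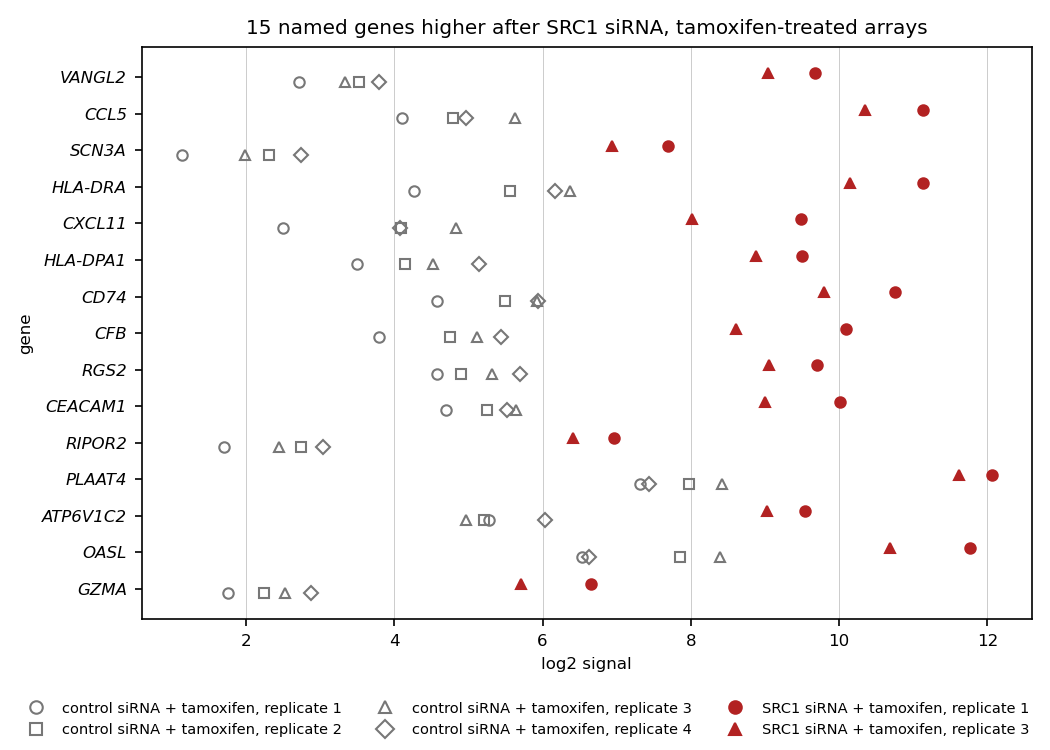
Log2 signal (horizontal axis) of the 15 genes with the largest rises, each point being 1 array of tamoxifen-exposed cells. Filled red points are SRC1-siRNA replicates 1 (circles) and 3 (triangles), open grey points control-siRNA replicates 1 to 4 (circle, square, triangle, diamond). For every gene drawn, both SRC1-siRNA arrays lie to the right of all 4 control arrays, and SRC1-siRNA replicate 1 lies to the right of replicate 3. Choice of the genes by size of change favours a separation of the groups, which 14.9% of all probe sets had in this direction.

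The others of the 15 have varied roles. RGS2, a regulator that shortens G protein signalling, read 9.69 and 9.06 against 4.57, 4.90, 5.31 and 5.69, a difference of 4.26 ± 0.53 (adjusted p = 0.0009). CEACAM1, the gene of a cell adhesion molecule of epithelia and leukocytes, read 10.01 and 9.00 against 4.70, 5.25, 5.65 and 5.52, a difference of 4.23 ± 0.52 (adjusted p = 0.000852). ATP6V1C2, which encodes a subunit of the vacuolar proton pump, read 9.54 and 9.03 against 5.28, 5.22, 4.97 and 6.03, a difference of 3.91 ± 0.50 (adjusted p = 0.00103). In none of these 3 did the groups overlap, which their choice by size of change favours. PLAAT4, a phospholipid-metabolising enzyme gene known to be induced by retinoids and interferon, was already bright in control cells at 7.31, 7.98, 8.41 and 7.43 and read 12.05 and 11.61 after knockdown. RIPOR2, which encodes an inhibitor of the small GTPase RHOA, read 6.96 and 6.41 against 1.71, 2.74, 2.45 and 3.04, and its brighter probe set rose by less, 1.53. GZMA, the gene of a granule protease of cytotoxic lymphocytes, read 6.65 and 5.70 against 1.75, 2.25, 2.53 and 2.88. The mean over 12 immune cell markers was 2.32 and 2.15 on the knockdown arrays and 2.14 to 2.22 on the control arrays. Of the 12, ITGAM, a myeloid integrin gene, rose, at 4.11 and 3.19 against 2.50, 2.71, 2.92 and 3.02, and it did not pass with the replicate term. The part of other cells in the rise of GZMA was not tested.

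Promoters were read for the genes that moved together. RefSeq (GRCh38.p14) windows from 250 bases before to 50 after the start were at hand for 233 of the 314 genes at least 2-fold higher. The core of the interferon-stimulated response element, spelled GAAA, any 2 bases and GAAA on either strand, was found in 48 of them (20.6%). The share was 3.98% of the 15384 measured genes with a window and 1 of 62 (1.61%) for genes at least 2-fold lower. A kappa-B motif, GGGA, any base and TTTCC on either strand, was found in 10 of the 233 (4.29%) against 0.735% of measured genes. The windows below show the match, in capitals, in the 2 of 10 most-risen genes with a window that held it, CFB and CEACAM1, and in TAP1, which held overlapping response element matches and a kappa-B match. That of VANGL2, the largest rise, held neither motif. A match is a string of letters in a window and says nothing of binding.
VANGL2, chr1:160400314-160400613, plus strand: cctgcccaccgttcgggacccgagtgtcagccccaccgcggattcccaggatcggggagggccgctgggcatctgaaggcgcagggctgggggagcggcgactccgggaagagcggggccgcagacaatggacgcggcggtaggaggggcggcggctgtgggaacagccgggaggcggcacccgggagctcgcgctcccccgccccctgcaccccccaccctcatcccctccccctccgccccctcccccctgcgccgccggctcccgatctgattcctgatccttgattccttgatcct
CFB, chr6:31945845-31946144, plus strand: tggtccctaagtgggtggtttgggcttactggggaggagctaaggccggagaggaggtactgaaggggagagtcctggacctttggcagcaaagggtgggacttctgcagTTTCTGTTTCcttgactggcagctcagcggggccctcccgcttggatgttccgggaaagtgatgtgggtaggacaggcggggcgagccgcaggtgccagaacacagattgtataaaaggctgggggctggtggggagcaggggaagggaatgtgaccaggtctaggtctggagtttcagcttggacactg
CEACAM1, chr19:42528432-42528731, minus strand: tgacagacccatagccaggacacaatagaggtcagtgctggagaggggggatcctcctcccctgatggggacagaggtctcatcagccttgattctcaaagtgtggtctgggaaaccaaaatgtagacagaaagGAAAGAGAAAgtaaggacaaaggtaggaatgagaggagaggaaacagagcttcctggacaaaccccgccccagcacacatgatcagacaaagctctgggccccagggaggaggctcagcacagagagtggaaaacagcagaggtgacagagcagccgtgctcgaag
TAP1, chr6:32853655-32853954, minus strand, the first of 2 windows: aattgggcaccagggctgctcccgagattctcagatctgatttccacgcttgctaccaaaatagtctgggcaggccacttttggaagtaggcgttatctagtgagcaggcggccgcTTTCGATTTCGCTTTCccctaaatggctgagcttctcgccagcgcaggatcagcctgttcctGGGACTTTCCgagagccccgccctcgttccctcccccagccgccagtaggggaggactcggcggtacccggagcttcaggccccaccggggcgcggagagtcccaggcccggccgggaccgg
The matches began 140 bases before the start in CFB and 116 before it in CEACAM1. In TAP1 they began 134 and 128 bases before the start, and the kappa-B match 72 bases before it.

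Gene groups were described through the brightest probe set of each member. The lists and their members were chosen with earlier results of these data known. A share of calls above that of all genes is therefore no independent evidence for a list. On that basis 1284 of 19775 genes rose (6.49%) and 1722 fell (8.71%), or 274 (1.39%) and 259 (1.31%) with the replicate term. Their median change was -0.03. Among 16 sensors and adaptors of double-stranded RNA, 2 rose (12.5%) and 1 fell (6.25%). DHX58, which encodes the RIG-I-like receptor LGP2, read 5.90 and 5.27 against 3.70, 4.23, 4.49 and 4.05, a difference of 1.47 ± 0.25 (limma adjusted p = 0.00319). ZBP1, the gene of a sensor of Z-form nucleic acid, rose by 1.24 ± 0.29 (adjusted p = 0.0161). PRKRA, which encodes an activator of the kinase PKR and partner of Dicer, fell by 0.41 on the log2 scale (adjusted p = 0.00597). DHX58 passed with the replicate term, and none of the 16 passed once SRC1-siRNA replicate 1 was left out, while 4 rose without control replicate 3.

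The interferon genes themselves were higher. Of 18 genes for interferons, their receptors and JAK-STAT factors, 5 rose and 0 fell, with a median of 0.25. IFNB1, which encodes interferon beta, read 10.58 and 9.12 against 4.95, 6.78, 7.40 and 5.33. IFNL1, which encodes the epithelial interferon lambda-1, read 11.18 and 9.94 against 6.47, 7.88, 8.29 and 6.11. For both genes control replicates 2 and 3 lay above replicates 1 and 4, over a range of 2.44 for IFNB1, and the groups did not overlap. The differences were 3.74 ± 0.82 for IFNB1 (adjusted p = 0.0115) and 3.37 ± 0.77 for IFNL1 (adjusted p = 0.0136). IRF1, the transcription factor gene central to the interferon gamma response, rose by 1.19 ± 0.33, JAK2, the gene of a receptor-bound kinase, by 1.11 ± 0.22, and IFNLR1, which encodes the lambda receptor, by 0.44 ± 0.10. With the replicate term 0 of the 18 passed, with adjusted p of 0.0716 for IFNB1 and 0.0779 for IFNL1. Leaving out SRC1-siRNA replicate 1 left 0 calls, and leaving out replicate 3 left 3 rises and 1 fall.

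Of 36 interferon response genes, 10 rose (27.8%) and 0 fell, with a median difference of 0.79, which was 0.46 without control replicate 4. On 25 of the 36 the SRC1-siRNA arrays lay above all control arrays, against 3142 of 19775 genes by their brightest probe set and 14.9% of all probe sets. SAMD9L, the gene of an antiviral restriction factor, read 10.98 and 9.54 against 5.03, 7.37, 7.50 and 6.31, a difference of 3.71 ± 0.72 (adjusted p = 0.00611). ISG20, which encodes an antiviral exonuclease, read 11.92 and 10.96 against 7.44, 8.33, 8.77 and 8.38, a difference of 3.21 ± 0.49 (adjusted p = 0.00212). HERC5, the gene of the ligase that attaches ISG15 to proteins, read 11.46 and 10.59 against 8.04, 9.08, 9.21 and 7.45, a difference of 2.58 ± 0.63 (adjusted p = 0.0188). In each of the 3, both knockdown arrays lay above all 4 controls, but the lowest control differed, being replicate 1 for SAMD9L and ISG20 and replicate 4 for HERC5. LGALS3BP, which encodes a secreted galectin-binding glycoprotein, rose by 1.51 ± 0.25, and MX1, the gene of an antiviral dynamin-like GTPase, by 1.09 ± 0.18. Some members were bright in every array. ISG15, the ubiquitin-like modifier gene, read 13.34 and 13.15 against 12.40, 12.55, 12.80 and 11.84, and its difference of 0.85 ± 0.33 did not pass (adjusted p = 0.102). IFIT1, the gene of a protein that binds viral RNA, read 12.52 and 12.31 against 12.19, 12.34, 12.45 and 10.37, overlapping, with control replicate 4 far below the other controls. The mean of the list was 11.82 and 11.42 on the SRC1-siRNA arrays and 10.40, 10.87, 11.01 and 9.70 on the control arrays. With the replicate term 5 of the 36 passed, and without SRC1-siRNA replicate 1, 2 did.

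Genes typical of the response to interferon gamma had the highest median of the lists, 1.45. Of 18 measured, 11 rose (61.1%) and 0 fell. CXCL11 encodes a ligand of CXCR3, a chemokine receptor found on T cells. On its brighter probe set it read 11.04 and 9.08 against 4.49, 6.20, 6.76 and 5.03, a difference of 4.44 ± 0.74 (adjusted p = 0.00296). GBP4, a guanylate-binding protein gene, read 9.08 and 7.66 against 3.98, 5.38, 5.99 and 5.40, a difference of 3.18 ± 0.67 (adjusted p = 0.00969). CD274, which encodes the immune checkpoint ligand PD-L1, read 8.88 and 7.73 against 5.04, 6.64, 6.89 and 5.82, a difference of 2.21 ± 0.60 (adjusted p = 0.029). Knockdown and control arrays did not overlap in any of these, although control replicate 3 came within 0.83 of SRC1-siRNA replicate 3 for CD274. IDO1, the gene of a tryptophan-degrading enzyme, rose by 1.90 ± 0.46 from control signals of 2.00 to 3.01, all below the median signal. WARS1, the gene of the cytosolic tryptophanyl-tRNA synthetase, was bright at 10.91 to 11.31 and rose by 1.27 ± 0.16 (adjusted p = 0.000867). Of the 18, 3 passed with the replicate term, CXCL11, WARS1 and APOL1, an apolipoprotein L gene. The count was 1 without SRC1-siRNA replicate 1, and 7 without control replicate 1 or control replicate 4.

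Genes of antigen presentation by MHC class II rose, and of the lists this one had the most rises with the replicate term, 8. Of 16 measured, 11 rose (68.8%) without the term and 0 fell, with a median of 0.81. HLA-DRA, the gene of the class II alpha chain, read 11.13 and 10.14 against 4.26, 5.56, 6.37 and 6.17, a difference of 5.04 ± 0.74 (adjusted p = 0.00165). CD74, which encodes the invariant chain that guides class II molecules, read 10.75 and 9.80 against 4.57, 5.49, 5.93 and 5.93, a difference of 4.80 ± 0.67 (adjusted p = 0.00132). HLA-DMB, which encodes a subunit of the peptide exchanger HLA-DM, read 8.70 and 8.01 against 4.93, 5.40, 5.56 and 4.93, a difference of 3.15 ± 0.32 (adjusted p = 0.000373). The controls of these 3 genes spanned 0.63 to 2.11, and the knockdown arrays lay above them all. CIITA, the transactivator gene of the class II genes, read 4.18 and 4.00 against 2.97, 3.43, 3.59 and 3.29, a difference of 0.77 ± 0.23 (adjusted p = 0.0429, and 0.167 with the replicate term). HLA-DRB1, a beta chain gene, was bright in all arrays and rose by only 0.31 ± 0.09; HLA genes are near-identical in places, and their probe sets may share signal. The count was 8 without SRC1-siRNA replicate 1 and 9 without replicate 3. The mean of the list was 8.10 and 7.74 on the knockdown arrays and 5.82 to 6.32 on the controls.

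**Figure D2:**
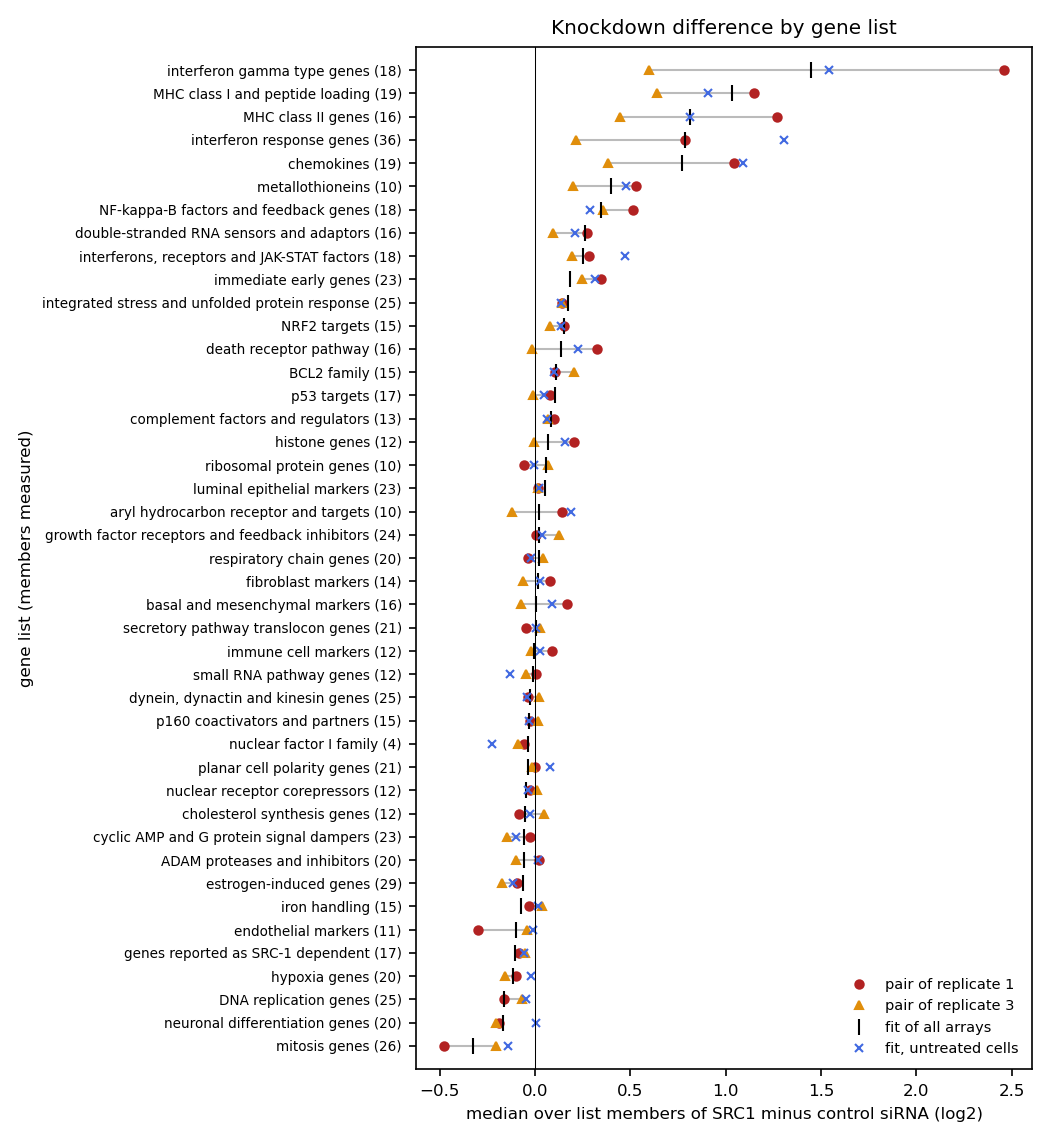
Median over the measured members of each gene list of the log2 difference of SRC1 siRNA minus control siRNA, with the number of members in brackets. Red circles and orange triangles are the pairs of replicates 1 and 3 with tamoxifen, black bars the fit of all arrays and blue crosses the fit in untreated cells. Interferon gamma type genes have the widest gap between the pairs, 2.46 against 0.60, and mitosis genes the lowest median, -0.32.

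Genes of the class I pathway rose as well. Of 19 measured, 13 rose (68.4%) and 0 fell, with a median of 1.03, and 7 passed with the replicate term. HLA-F, a non-classical class I gene, read 11.73 and 11.26 against 8.98, 9.66, 9.99 and 8.76, a difference of 2.15 ± 0.32 (adjusted p = 0.0018). NLRC5, the class I transactivator gene, read 10.40 and 9.47 against 7.70, 8.41, 8.55 and 6.94, a difference of 2.04 ± 0.60 (adjusted p = 0.0407). TAP1, a subunit gene of the peptide transporter whose promoter is shown above, read 12.11 and 11.92 against 10.96, 11.07, 11.28 and 10.52, a difference of 1.06 ± 0.21 (adjusted p = 0.007). In all 3 the groups were apart, and control replicate 4 was the lowest array. The immunoproteasome genes PSMB9, PSMB10 and PSMB8, whose subunits cut peptides for loading, rose by 1.71 ± 0.41, 1.36 ± 0.25 and 1.03 ± 0.22. Classical class I genes were already bright in control cells. HLA-B rose by 1.40 ± 0.24 from control signals of 10.52 to 11.10, and HLA-C by 0.61 ± 0.10 from 12.51 to 12.74. The rises numbered 2 without SRC1-siRNA replicate 1 and 9 without replicate 3.

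Among 19 chemokine genes 8 rose (42.1%) and 0 fell, with a median of 0.77, and 6 passed with the replicate term. The count was 3 without SRC1-siRNA replicate 1. CCL22, which encodes an attractant of regulatory T cells, read 8.13 and 7.29 against 3.23, 4.09, 4.40 and 4.46, a difference of 3.66 ± 0.45 (adjusted p = 0.000852). CX3CL1, the gene of the membrane-bound chemokine fractalkine, read 4.19 and 4.65 against 1.88, 1.87, 2.06 and 2.59, a difference of 2.32 ± 0.39 (adjusted p = 0.00312). For CX3CL1 the order of the knockdown arrays was turned, with replicate 3 above replicate 1. The neutrophil attractant genes CXCL1, CXCL2 and CXCL3, which NF-kappa-B is known to drive, rose by 1.33 ± 0.32, 1.68 ± 0.32 and 0.99 ± 0.20. Of 18 NF-kappa-B factors and feedback genes, 9 rose (50%) and 0 fell, with a median of 0.35, and 3 passed with the replicate term. These 3 were TNFAIP3, TNFAIP2 and ICAM1. TNFAIP3, which encodes the feedback inhibitor A20, read 8.59 and 8.09 against 6.52, 7.13, 6.97 and 6.73, a difference of 1.50 ± 0.26 (adjusted p = 0.00375). ICAM1, the gene of a leukocyte adhesion receptor, rose by 1.06 ± 0.18 and NFKBIA, the gene of the inhibitor I-kappa-B alpha, by 0.64 ± 0.15. Of these 18, 1 passed without SRC1-siRNA replicate 1.

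Of 13 complement factors and regulators, 5 rose (38.5%) and 1 fell (7.69%), and the median was 0.08. CFB, the gene of factor B of the alternative pathway, read 10.09 and 8.61 against 3.79, 4.75, 5.11 and 5.44, a difference of 4.58 ± 0.68 (adjusted p = 0.00176). C3, which encodes the central component of the cascade, read 6.64 and 6.37 against 2.42, 2.75, 3.10 and 3.38, a difference of 3.59 ± 0.41 (adjusted p = 0.000576). C5, the gene of the component that starts the terminal pathway, went the other way and read 8.10 and 8.23 against 9.03, 8.86, 8.62 and 8.86, a fall of 0.68 on the log2 scale (adjusted p = 0.00162). These 3 genes passed with the replicate term, and their groups did not overlap. SERPING1, which encodes the C1 inhibitor, rose by 2.40 ± 0.49. The count of rises was 2 without SRC1-siRNA replicate 1 and 3 without SRC1-siRNA replicate 3 or control replicate 1, 2 or 3.

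The other members of planar cell polarity did not share the size of the rise of VANGL2. Of 21 genes 4 rose (19.0%) and 1 fell (4.76%), against 6.49% and 8.71% of all genes. The median was -0.04, and it was 0.10 without SRC1-siRNA replicate 3 and 0.01 without control replicate 2 or 3. WNT5A, the gene of a ligand of this pathway, read 4.51 and 4.72 against 3.22, 3.54, 3.05 and 3.40, a difference of 1.31 ± 0.14 (adjusted p = 0.000457), with SRC1-siRNA replicate 3 the higher array. PRICKLE2 and CELSR3, which encode core components, rose by 0.44 ± 0.11 and 0.29 ± 0.07, and the receptor gene FZD3 fell by 0.41. VANGL2 and WNT5A passed with the replicate term. The list had 2 rises and 0 falls when either knockdown array was left out. Luminal epithelial markers held 4 rises (17.4%) among 23 genes and 1 fall (4.35%), and 3 of the rises were of CEACAM1 and its relatives CEACAM5 and CEACAM6. CEACAM5, the gene of carcinoembryonic antigen, read 9.22 and 9.09 against 6.71, 6.94, 6.44 and 7.49, a difference of 2.26 ± 0.31 (adjusted p = 0.00122). CEACAM1 and CEACAM5 passed with the replicate term. Of the 23, 1 rose and 0 fell without SRC1-siRNA replicate 1.

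Lists of stress and death genes held more rises than falls, where 6.49% of all genes rose and 8.71% fell. Of 23 immediate early genes 6 rose (26.1%) and 0 fell, with a median of 0.18, which was 0.12 without SRC1-siRNA replicate 3. EGR3, which encodes a zinc finger factor, read 9.29 and 8.91 against 6.29, 7.50, 7.51 and 7.49, a difference of 1.91 ± 0.35 (adjusted p = 0.00484), and ATF3, a stress factor gene, rose by 1.65 ± 0.42. EGR3 alone passed with the replicate term, and none of the 23 did without SRC1-siRNA replicate 1. In the death receptor pathway 3 of 16 rose (18.8%) and 1 fell, of which CASP4 passed with the replicate term. TNFSF10, the gene of the death ligand TRAIL, read 9.37 and 7.85 against 4.17, 6.23, 6.55 and 4.61, a difference of 3.22 ± 0.78 (adjusted p = 0.018, and 0.0935 with the replicate term). CASP4, an inflammatory caspase gene, read 7.67 and 7.69 against 5.70, 6.07, 6.41 and 5.96, a difference of 1.65 ± 0.24 (adjusted p = 0.00159, and 0.0227 with the term). In the BCL2 family 5 of 15 rose (33.3%) and 0 fell, among them the pro-death genes PMAIP1, by 1.08 ± 0.27, BCL2L11, by 0.55 ± 0.11, and BAX, by 0.48 ± 0.09, and the survival genes MCL1, by 0.26 ± 0.08, and BCL2A1, by 0.34 ± 0.11. BAX alone of these passed with the replicate term. Of 25 genes of the integrated stress and unfolded protein response 5 rose (20%) and 1 fell, and of 17 p53 targets 4 rose (23.5%) and 1 fell, in both with 0 calls with the replicate term. The largest rise of the p53 targets, 1.08, was also that of the BCL2 family, so that these lists share a member and are not separate. Leaving out SRC1-siRNA replicate 1 left 2 rises in the BCL2 family, 1 in the death receptor pathway, 1 in the stress list and 0 among p53 targets. Leaving out another single array left 2 to 4, 2 to 4, 2 to 3 and 2 to 4 rises in these lists.

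Metallothioneins, which bind zinc and copper, and zinc transporters had 5 rises (50%) and 1 fall (10%) among 10 genes. MT1G read 11.43 and 11.19 against 10.27, 10.66, 10.85 and 9.93, a difference of 0.88 ± 0.21 (adjusted p = 0.0168), and MT1F, the rise that passed with the replicate term, rose by 0.51 ± 0.08. SLC39A10, the gene of a zinc importer, read 9.41 and 9.57 against 10.14, 10.26, 10.30 and 10.11, a fall of 0.72 (adjusted p = 0.000634). These became 1 rise and 1 fall without SRC1-siRNA replicate 1. Of 15 NRF2 targets 3 rose and 0 fell, among them HMOX1, the gene of heme oxygenase, by 1.02 ± 0.19 and AKR1B10, an aldo-keto reductase gene, by 1.32 ± 0.25, and these 2 passed with the replicate term. Of 12 histone genes 4 rose, led by H1-2 at 0.58 ± 0.14, and 0 passed with the term. The rises were 0 of the NRF2 targets and 1 of the histone genes without SRC1-siRNA replicate 1, and 1 of the histone genes without replicate 3.

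The 15 genes with the largest falls were DYNC1I2, NFIA, PKIA, SLC25A3, ACO1, SSX2IP, MEIOC, REEP1, SYNC, USP31, GXYLT2, GFRA1, NCOA1, PCDHB4 and DCLK1, with differences from -1.74 to -1.47. The replicate term left 13 of them past the threshold, and GXYLT2 and PCDHB4 did not. Without SRC1-siRNA replicate 1, 12 passed, USP31, GXYLT2 and PCDHB4 being lost, and without replicate 3, 14 passed. NFIA, which encodes a nuclear factor I transcription factor, read 6.75 and 6.89 on the knockdown arrays against 8.55, 8.65, 8.67 and 8.38, a difference of -1.74 ± 0.22 (adjusted p = 0.000995). PKIA, the gene of a protein kinase A inhibitor, read 5.44 and 5.34 against 7.18, 7.04, 7.00 and 7.13, a difference of -1.70 ± 0.25 (adjusted p = 0.00165). The PKIA arrays of a group lay within 0.18 of each other, far less than the gap between the groups. GFRA1, the gene of the GDNF co-receptor, which estrogen is known to induce, read 6.45 and 6.19 against 8.01, 7.72, 7.90 and 7.69, a difference of -1.51 ± 0.29 (adjusted p = 0.00618). DCLK1, a doublecortin-like kinase gene, read 6.41 and 6.04 against 7.77, 7.89, 7.83 and 7.29, a difference of -1.47 ± 0.23 (adjusted p = 0.00235). For GFRA1 and DCLK1 the lower knockdown array was replicate 3, unlike most genes that rose, in which replicate 1 was the farther one.

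**Figure D3:**
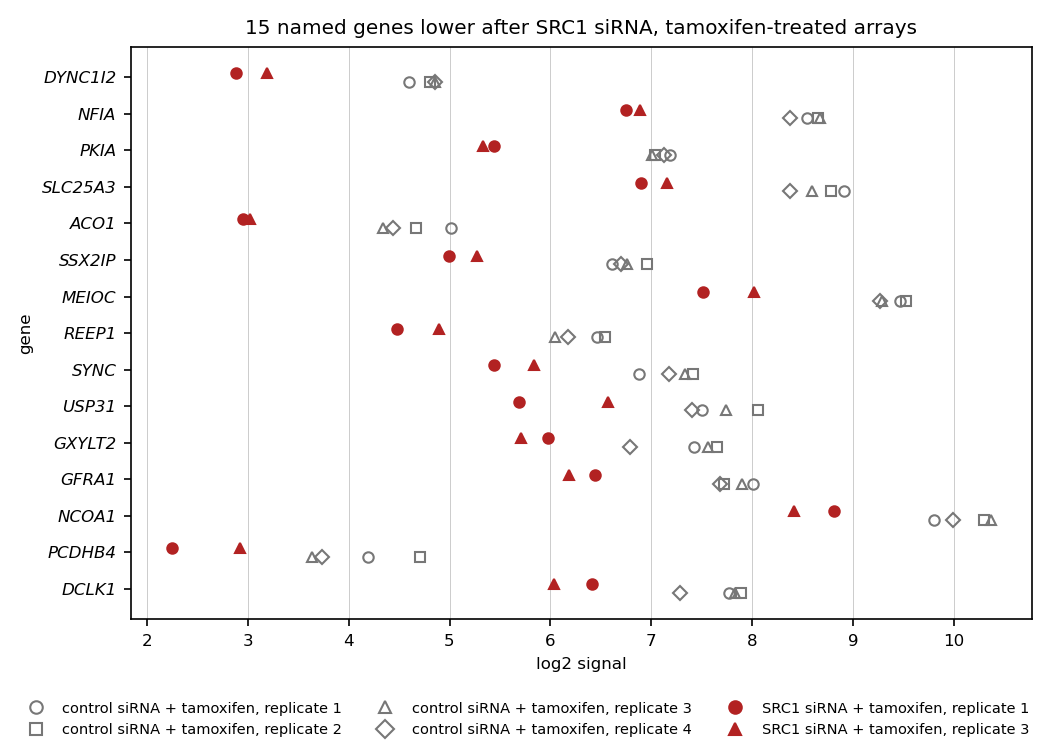
Log2 signal of the 15 genes with the largest falls on the arrays of tamoxifen-exposed cells. Filled points are SRC1-siRNA replicates 1 (circles) and 3 (triangles), open grey points the 4 control-siRNA replicates. In all 15 genes both SRC1-siRNA arrays lie to the left of the control arrays, and the gaps are narrower than those of the rises. Choice of the genes by size of change favours a separation of the groups, which 21.1% of all probe sets had in this direction.

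The fall of some genes depended on the probe set. DYNC1I2, the gene of a dynein intermediate chain, read 2.88 and 3.19 against 4.59, 4.81, 4.86 and 4.85 on the probe set with the largest change, and its brightest probe set fell by less, -0.79. SLC25A3, which encodes the mitochondrial phosphate carrier, read 6.90 and 7.15 against 8.91, 8.79, 8.59 and 8.38, while its brightest probe set differed by -0.11 and did not pass. For the other 14 of the 15 genes the brightest probe set passed in the same direction. ACO1, the gene of the cytosolic aconitase that also acts as an iron regulatory protein, read 2.95 and 3.02 against 5.02, 4.67, 4.34 and 4.44, a difference of -1.63 ± 0.23 (adjusted p = 0.00132). REEP1, which encodes a shaping protein of the endoplasmic reticulum, read 4.48 and 4.90 against 6.46, 6.54, 6.04 and 6.18, a difference of -1.62 ± 0.25 (adjusted p = 0.00217). SYNC, an intermediate filament gene of muscle, read 5.44 and 5.84 against 6.88, 7.41, 7.33 and 7.18, a difference of -1.56 ± 0.18 (adjusted p = 0.000576). The brightest probe sets of other genes fell by less as well. SSX2IP, a centrosome protein gene, changed by -1.63 against -0.79 on its brightest probe set, USP31, a deubiquitinase gene, by -1.54 against -0.73, and NFIA by -1.74 against -0.80. REEP1 changed by -1.62 against -1.21, NCOA1 by -1.50 against -1.11, DCLK1 by -1.47 against -1.06, and PKIA by -1.70 against -1.69. The remaining falls, each of the brightest probe set, were of MEIOC, a meiosis gene, at -1.62, GXYLT2, a xylosyltransferase gene, at -1.52, and PCDHB4, a protocadherin gene, at -1.48.

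Mitosis genes were the list with the most falls. Of 26 measured, 11 fell (42.3%) and 0 rose, with a median of -0.32. On 22 of the 26 both knockdown arrays lay below all controls, against 4545 of 19775 genes by their brightest probe set and 21.1% of all probe sets. The falls were small. KIF23, a kinesin gene of the central spindle, read 9.55 and 9.81 against 10.47, 10.30, 10.25 and 10.36, a difference of -0.66 ± 0.15 (adjusted p = 0.0139). CCNB2, the gene of cyclin B2, read 9.10 and 9.34 against 9.80, 9.63, 9.79 and 9.83, a difference of -0.54 ± 0.09 (adjusted p = 0.0035, and 0.0385 with the replicate term). BUB1B, a spindle checkpoint kinase gene, read 9.68 and 9.74 against 10.27, 10.26, 10.11 and 10.10, a difference of -0.48 ± 0.10 (adjusted p = 0.00722). CDK1, the mitotic kinase gene, and TOP2A, which encodes topoisomerase II alpha, both changed by -0.34. CCNB2 was the member that passed with the replicate term, and 1 of the 26 passed without SRC1-siRNA replicate 1. Of 25 DNA replication genes 6 fell and 0 rose, with a median of -0.16, among them CDC6, a licensing factor gene, at -0.43 ± 0.12 and MCM10 at -0.35 ± 0.07. The fit with the replicate term gave 0 calls in this list. The count was 0 without SRC1-siRNA replicate 1, 3 without SRC1-siRNA replicate 3, and 2 without control replicate 1, 3 or 4.

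Of 29 estrogen-induced genes 1 rose (3.45%) and 3 fell (10.3%), with a median of -0.06, which was -0.12 without SRC1-siRNA replicate 1 and -0.10 without control replicate 4. The rise was of EGR3, by 1.91 as given above, and it passed with the replicate term. GREB1, which encodes an estrogen receptor cofactor and is an early estrogen target, read 10.84 and 10.57 against 11.48, 11.45, 11.53 and 11.13, a difference of -0.69 ± 0.14 (adjusted p = 0.00787, and 0.0665 with the replicate term). MYBL1, a MYB family transcription factor gene, fell by 0.60 and passed with the term (adjusted p = 0.0433), and RERG, an estrogen-regulated RAS-like gene, fell by 0.49. TFF1, the trefoil factor gene often used as an estrogen target, read 13.55 and 13.56 against 13.50, 13.49, 13.54 and 13.49, a difference of 0.05 ± 0.05 (adjusted p = 0.49). Without SRC1-siRNA replicate 1 the list had 0 rises and 1 fall. Of 17 genes that earlier work tied to SRC-1, 2 rose (11.8%) and 3 fell (17.6%), against 6.49% and 8.71% of all genes. Some of the 17 may have been picked from these same arrays, and their direction is then no independent evidence. The 2 rises did not pass with the replicate term. The 3 falls passed with the replicate term and in all 6 fits that left out an array. POU3F2, a neural transcription factor gene, read 5.03 and 5.45 against 6.34, 6.51, 6.43 and 6.31, NTRK2, a neurotrophin receptor gene, fell by 0.99 and GABBR2, a GABA-B receptor subunit gene, by 0.66. ADAM22, a metalloprotease-family gene of this list, read 4.58 and 4.50 against 4.88, 4.75, 4.75 and 4.64, a difference of -0.21 ± 0.08 (adjusted p = 0.113). Of 12 corepressor genes 1 rose and 0 fell, TBL1X, at 0.18 ± 0.05, and it did not pass with the term.

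Neuronal differentiation genes split, with 3 rises (15%) and 5 falls (25%) among 20, against 6.49% and 8.71% of all genes. As this list and those below were chosen with earlier results of these data known, such shares are no independent evidence. Of these calls 2 and 2 passed with the replicate term: SCN3A and MAP2, and NCAM1 and POU3F2. SCN3A, MAP2, a microtubule protein gene, and SYT1, a synaptic vesicle protein gene, rose, the latter pair by 0.61 ± 0.08 and 0.39 ± 0.07. NCAM1, a neural adhesion molecule gene, read 6.55 and 6.37 against 7.56, 7.54, 7.25 and 7.21, a difference of -0.93 ± 0.15 (adjusted p = 0.003), and POU3F2 fell by 1.15. Without SRC1-siRNA replicate 1 the list had 2 rises and 2 falls. In the nuclear factor I family NFIA and NFIB fell, by 0.80 and 0.36 on their brightest probe sets, and NFIX rose by 0.42 ± 0.11, of which NFIA passed with the replicate term. Of 23 genes of cyclic AMP and G protein signalling 2 rose (8.70%) and 3 fell (13.0%). They were RGS2 and GEM, a GTPase gene, against PKIA and the regulatory kinase subunit genes PRKAR2B and PRKAR2A, which fell by 0.47 and 0.37. RGS2 and PKIA passed with the replicate term. Of 25 dynein, dynactin and kinesin genes 1 rose (4%) and 2 fell (8%), no more than the shares of all genes, and DYNC1I2 passed with the term. Of 15 iron handling genes 2 rose (13.3%) and 2 fell (13.3%), the falls being of ACO1 and the importer gene SLC39A14, of which ACO1 passed with the term. TIMP3, a metalloprotease inhibitor gene, read 8.45 and 8.50 against 9.19, 9.35, 9.26 and 9.36, the larger of 2 falls (10%) among 20 ADAM proteases and inhibitors. Of the 20, 2 also rose (10%), and TIMP3 alone passed with the term.

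The remaining lists had few calls, where 6.49% of all genes rose and 8.71% fell. The counts were 0 rises and 3 falls (15%) among 20 hypoxia genes, 0 and 1 (8.33%) among 12 cholesterol synthesis genes, 0 and 2 (16.7%) among 12 small RNA pathway genes, and 2 and 2 (8.33% each) among 24 growth factor receptors and feedback inhibitors. They were 0 and 1 (4.76%) among 21 translocon genes, and 1 and 2 (5% and 10%) among 20 respiratory chain genes. Both were 0 among 10 aryl hydrocarbon receptor targets and 10 ribosomal protein genes, where 1 and 0 genes had an unadjusted p under 0.05 in limma's test. With the replicate term there was 1 fall each among the hypoxia, growth factor receptor and translocon genes, and no other call in these lists. Leaving out 1 array moved these counts by at most 2. Of the markers of other cells, 1 of 16 basal and mesenchymal genes rose, FN1, the fibronectin gene, at 0.90 ± 0.19, which passed with the term. Among 14 fibroblast markers 0 rose and 1 fell, and the mean of the list was 3.46 to 3.54 on the knockdown arrays and 3.44 to 3.51 on the controls. Among 12 immune markers 1 rose, ITGAM. Among 11 endothelial markers 1 fell, CDH5, whose signals of 2.25 and 2.25 against 2.61, 2.52, 2.63 and 2.67 were all below the median signal. Of the calls in the fibroblast, immune and endothelial lists, that of CDH5 alone passed with the term.

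Both pairs went the same way, and that of replicate 1 went farther. Within replicate 1, 960 probe sets (1.76%) were up by 2-fold or more and 355 (0.65%) were down by as much. Within replicate 3 the counts were 485 (0.888%) and 159 (0.291%). A 2-fold difference or more was shared by both pairs for 279 probe sets upward (0.511%) and 46 downward (0.0842%), and 0 had such differences of opposite sign. Over the 468 probe sets called at least 2-fold higher, the median difference was 2.00 in replicate 1 and 1.17 in replicate 3, and it was larger in replicate 1 for 411. Control replicate 1 was the lowest control array for 338 of the 468, and SRC1-siRNA replicate 1 the higher knockdown array for 411, so that both arrays of the pair contributed to its larger difference. Over the 102 called at least 2-fold lower the medians were -1.38 and -1.12. Across all 54613 probe sets, which are not independent and share their normalization, the differences of the pairs had a Pearson r of 0.524.

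**Figure D4:**
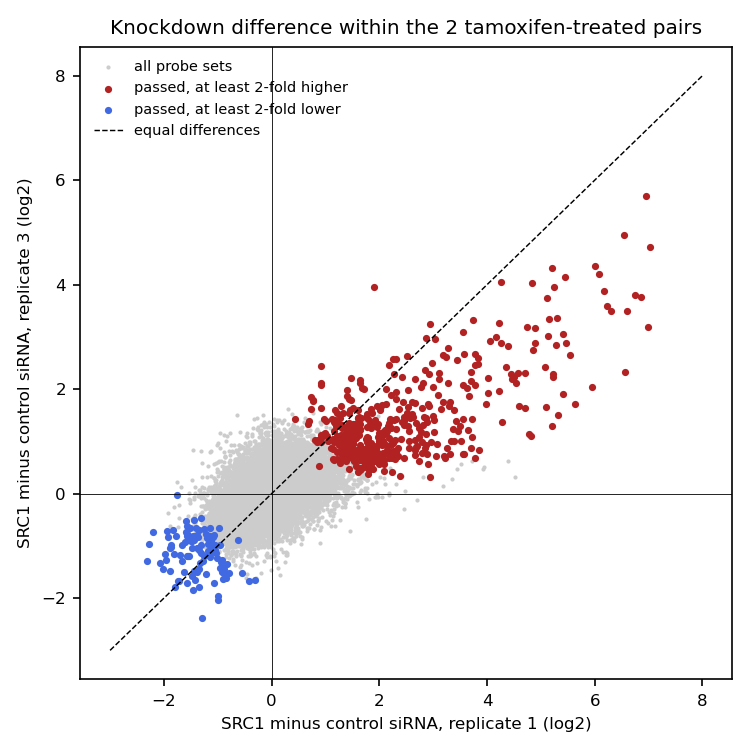
Log2 difference of SRC1 siRNA minus control siRNA in replicate 1 (horizontal axis) and replicate 3 (vertical axis), each point being a probe set in tamoxifen-exposed cells. Red points passed and were at least 2-fold higher in the fit of all arrays, blue points at least 2-fold lower, grey points are all others. Most red points (411 of 468) lie below the dashed line of equal differences.

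The genes with the widest gap between the pairs were of the interferon response. CXCL11 differed by 6.55 in replicate 1 and 2.32 in replicate 3, SAMD9L by 5.95 and 2.03, and IFNB1 by 5.63 and 1.72. TNFSF10 differed by 5.20 and 1.30, and MX2, the gene of an antiviral GTPase, by 4.79 and 1.14. By list, the median of interferon gamma type genes was 2.46 in replicate 1 and 0.60 in replicate 3, that of interferon response genes 0.79 and 0.22, and that of mitosis genes -0.48 and -0.20. Not every gene had this gap. VANGL2 differed by 6.96 and 5.71, NFIA by -1.79 and -1.78, HLA-DPB1, a class II beta chain gene, by 2.94 and 3.24, and NCOA1 had the opposite gap.

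The knockdown was set against the same knockdown in untreated cells, which shares no array with it. In untreated cells 5653 probe sets passed (10.4%), and 2154 with the replicate term (3.94%). At a change of 2-fold or more, 389 rose (0.712%) and 51 fell (0.0934%) there. Of 570 such probe sets with tamoxifen and 440 without, 337 passed in both (59.1% of the former and 76.6% of the latter), all 337 in the same direction. Of the 468 probe sets at least 2-fold higher with tamoxifen, 410 passed in the same direction in untreated cells at any size, with a median of 1.28 there against 1.45. Of the 102 lower, 83 did, with a median of -0.80 against -1.17. The 15 most-risen genes rose in untreated cells too, 15 of 15, VANGL2 by 5.17 and CCL5 by 4.87. These genes and probe sets were chosen for their size with tamoxifen, which by itself favours a larger value there, so that the order of the values is no finding. The brighter probe set of CXCL11, which was not the one chosen, had 4.44 with tamoxifen and 4.64 without. In limma's interaction test, which compares the knockdown difference between treatments, none of the 15 passed, with adjusted p of 0.375 to 0.946. Their interactions of 0.12 to 1.28 had standard errors of 0.47 to 0.96, and a p that misses the threshold does not show that the treatments gave the same difference.

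The interaction passed for 153 of 54613 probe sets (0.28%), 73 (0.134%) with a higher and 80 (0.146%) with a lower difference in tamoxifen-exposed cells, while 9444 (17.3%) had an unadjusted p under 0.05. The fit with the replicate term gave 0 calls, with 4879 (8.93%) at an unadjusted p under 0.05. It was 7 without SRC1-siRNA replicate 1, 253 without SRC1-siRNA replicate 3, and 346, 22, 40 and 87 without control replicates 1 to 4. TMPO, which encodes the lamina-associated polypeptide LAP2, had the largest such difference among named genes. With tamoxifen it read 6.47 and 7.21 after SRC1 siRNA and 7.70, 7.88, 7.73 and 7.94 on the controls. Without tamoxifen it read 8.13, 8.01, 7.91 and 7.87 after SRC1 siRNA and 7.28, 7.17, 7.32 and 7.20 on the controls. Its knockdown difference was -0.97 with tamoxifen and 0.74 without, and the groups were apart in both treatments in opposite directions (interaction -1.71 ± 0.19, adjusted p = 0.00924). Its brightest probe set had an interaction of -0.12 that did not pass.

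DYNC1I2 had a knockdown difference of -1.74 with tamoxifen and -0.50 without (interaction -1.24 ± 0.18, adjusted p = 0.0215). ITGA2, the gene of the collagen-binding integrin alpha 2, read 7.70 and 7.78 against 7.15, 7.19, 7.18 and 7.16 with tamoxifen. Without it the values were 7.43, 7.45, 7.47 and 7.39 against 7.40, 7.48, 7.43 and 7.44, which overlap. Its interaction was 0.57 ± 0.07 (adjusted p = 0.00924). The 4 ITGA2 groups had ranges of 0.04 to 0.08, and the tamoxifen controls lay below both untreated groups. The interaction was -0.91 ± 0.12 for SYK, a tyrosine kinase gene, -0.94 ± 0.12 for CDCA2, a mitotic phosphatase-targeting gene, -0.83 ± 0.12 for MYO5A, a myosin motor gene, and -0.64 ± 0.09 for PAM, a peptide-amidating enzyme gene. It was -0.82 ± 0.13 for CDC27, an anaphase-promoting complex gene, and -0.91 ± 0.15 for SHLD1, a shieldin gene of DNA repair. Among higher values it was 1.07 ± 0.14 for HBS1L, a ribosome rescue factor gene, 0.95 ± 0.15 for IGIP, 0.83 ± 0.14 for MKLN1, the muskelin gene, 0.75 ± 0.12 for PSMB1, a proteasome subunit gene, 0.67 ± 0.11 for LRP2BP, 0.67 ± 0.09 for NAV1, a neuron navigator gene, and 0.53 ± 0.09 for CDADC1. The brightest probe set of the gene passed the interaction in 2 of these 8 genes with higher values and in 0 of 8 with lower values, and IGIP did not pass in the knockdown with tamoxifen itself. For HBS1L the named probe set rose by 0.49 with tamoxifen, whereas its brightest one fell by 0.63 (limma adjusted p = 0.00493) and had an interaction of -0.22.

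**Figure D5:**
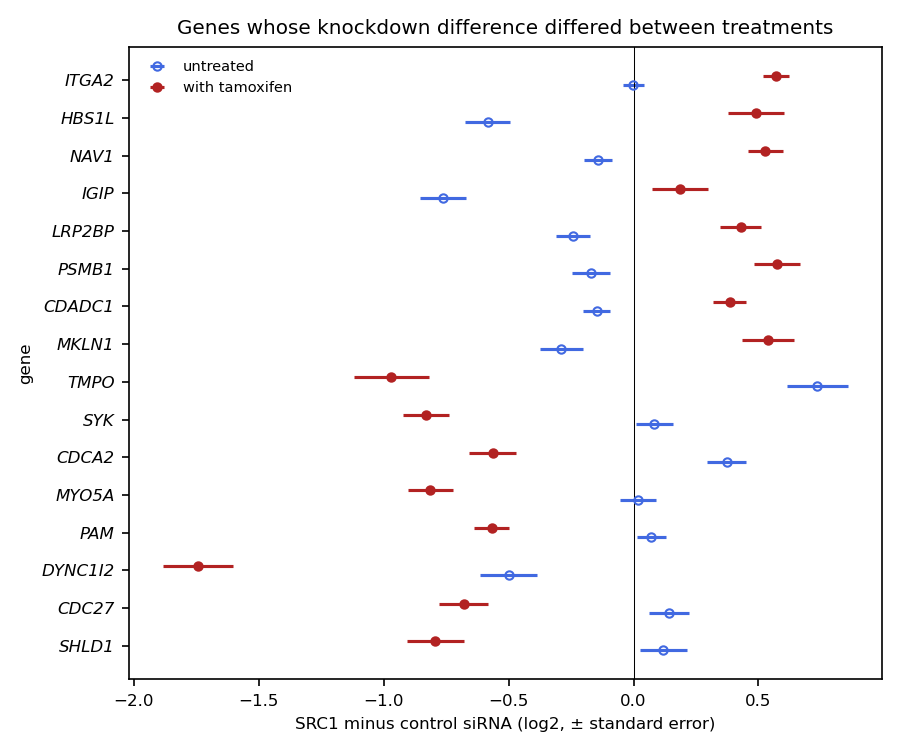
Log2 difference of SRC1 siRNA minus control siRNA, with its standard error, for 16 genes that passed the interaction in the fit without the replicate term. Filled red points are tamoxifen-exposed cells and open blue points untreated cells. The points of TMPO lie on opposite sides of 0 (-0.97 and 0.74), and both points of DYNC1I2 lie below 0.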

How the data were processed

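The deposited values, made by the authors, are log2 signals of Affymetrix HG-U133 Plus 2.0 arrays hybridised with biotin-labelled cDNA amplified with a NuGEN kit, per the labels' protocols. The submitters' processing notes name R 2.9.2. How background was corrected and signals normalized and summarised was not given in the sources used here. Of 54675 probe sets, 62 array controls were left out. Of the other 54613, 41091 had 1 gene symbol, 1801 several and 11721 none. The number of arrays limits the precision.

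The values were used as deposited. The linear model had 1 mean for each of the 4 groups, used the 14 arrays together, and was tested two-sided with lmFit and eBayes of limma 3.58.1 (in R 4.3.3, with statmod 1.5.0). P-values were adjusted by Benjamini-Hochberg over 54613 probe sets, and "passed" means an adjusted p under 0.05. "Rose" and "fell" are used only of what passed. The interaction is the knockdown difference with tamoxifen minus that without. The same fit was made with the replicate number as a term. Named genes are the 15 higher and 15 lower with the largest change among probe sets past the threshold with 1 symbol, a mean above the median signal and the same direction in both pairs, 1 probe set per gene. Added to them were up to 8 genes in each direction with the smallest interaction p, NCOA1, the 5 widest gaps between pairs, and list members past the threshold. A few members that did not pass (ESR1, KRT8, PTPRC, CD3E, NCOA2, ISG15, IFIT1, TFF1 and ADAM22) were named after their values had been seen. The 43 lists named 792 genes. Of these 727 had a probe set, and 65 were not analysed here. The members and lists were chosen with earlier results of these data known. On simulated arrays of this design with 200 changed probe sets, the code recovered 60%, 90%, 96% and 100% of changes of 0.5, 1, 2 and 4, with 4 false calls among 177. The simulated noise was independent between arrays and had no replicate structure, unlike the deposited values. The simulation therefore checks the code and does not give the rate of false calls in these data. Alternatives were the replicate term, subsets of arrays, array weights, trend and robust variance, quantile normalization, median centring, leaving out dim probe sets, and leaving out each array.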

Additional observations from a re-analysis of the deposited data

Results flagged for a closer look

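The mean of the fibroblast marker list in control-siRNA tamoxifen replicate 3 was 3.51, where the other 3 arrays of that group read 3.44 to 3.44. It stood apart from them by more than the critical value of Dixon's test for 4 arrays. Of 96 groups tested in this way 1 stood apart, where chance gives about 1 in 20.

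For 16 named genes the knockdown difference with tamoxifen differed from that in untreated cells by limma's interaction test in the fit without the replicate term. It was higher with tamoxifen by 0.57 for ITGA2, 1.07 for HBS1L, 0.67 for NAV1, 0.95 for IGIP, 0.67 for LRP2BP, 0.75 for PSMB1, 0.53 for CDADC1 and 0.83 for MKLN1. The value was -1.71 for TMPO, -0.91 for SYK, -0.94 for CDCA2, -0.83 for MYO5A, -0.64 for PAM, -1.24 for DYNC1I2, -0.82 for CDC27 and -0.91 for SHLD1. None of the 16 passed once the fit held a term for the replicate number. Over all probe sets its count was then 0 at an adjusted p of 0.05 and 4879 at an unadjusted p under 0.05.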

How the results depend on the processing

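No named gene changed direction under the alternatives run. Medians of lists near 0 did, such as that of planar cell polarity genes, from -0.04 to 0.10 without SRC1-siRNA replicate 3, and so did the balance of higher and lower calls in both fits of replicates 1 and 3 alone. The replicate number as a term (the replicate block) left 1224 calls of 7350 for the knockdown with tamoxifen, 604 higher and 620 lower, 283 of them at least 2-fold higher, 0 for the interaction and 2154 in untreated cells. The labels do not say that a number marks a shared culture, so that the main fit did not pair arrays by number. Deviations of same-numbered arrays from their group means had 18 correlations of -0.585 to -0.0421. Values centred by replicate number would give negative correlations whether or not numbers mark pairs, so that their sign cannot decide this. Arrays of replicates 1 and 3 alone with the replicate block gave 264 calls, 167 higher and 97 lower, 139 and 39 at least 2-fold higher and lower, 0 interactions and 218 calls in untreated cells. The 4 tamoxifen arrays of those replicates with the block, an alternative added after seeing the data, gave 181 calls, 152 higher and 29 lower, all with a change of at least 2-fold. A fit of only the 6 tamoxifen arrays gave 4025 calls, 1849 higher and 2176 lower. Without dim probe sets the interaction count was 52. Leaving out 1 array at a time gave 1390 to 6619 calls, 588 to 2866 higher and 802 to 3753 lower, 194 to 596 at least 2-fold higher, 86 to 156 at least 2-fold lower, 7 to 346 interactions, and an NCOA1 difference of -1.50 to -1.15. A lone SRC1-siRNA array was taken to vary as arrays of the other groups do. Of 202 named genes, 105 lost their call with the replicate block, 117 without SRC1-siRNA replicate 1, 48 without SRC1-siRNA replicate 3, and 15 to 28 without a control array. Array weights, trend and robust variance, quantile normalization and median centring left every count within 1.5 times. The cause of these shifts was not tested. Only 2 knockdown arrays limit the precision, and probe sets near the floor may have compressed differences.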
